A study of Mus musculus with 10 samples.

Results

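The genes described here encode the chains of the collagens in mouse skin. They were chosen by symbol: every gene named Col, a number, the letter a and a number was taken, except Col17a1, a transmembrane collagen of the epidermis. This gave 41 of the 19505 genes with a symbol on the array, each with 1 probe set. They were sorted by collagen type into 11 fibrillar genes, 8 of basement membranes, 8 of the fibril-associated group (FACIT), 6 of the beaded type VI filaments and 8 others. Col12a1 and Col21a1, which the rule would place in the fibril-associated group, are not among these 41 and were not analysed here.

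All samples were whole skin of C57BL/6J mice aged 9 weeks at the start, with 1 array per sample. Expanded skin was back skin over a silicone expander that had been filled step by step with injected PBS (phosphate-buffered saline), and non-expanded skin lay over an expander that was implanted but never filled. Both arms were sampled at days 0, 7, 14 and 21 after filling was complete, 1 array per arm and day, and the labels count the days of the unfilled arm in the same way. Normal skin without surgery was sampled once in telogen, when hair follicles rest, and once in anagen, when they grow hair. The labels do not say whether an array holds 1 animal or a pool, so p-values measure only the spread between these arrays, and within an arm that spread includes the change from day to day. A group of 2 arrays stands for skin without surgery in every test, and it mixes both hair stages.

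Collagens are proteins of 3 chains wound around each other in a triple helix. Fibrillar collagens, chiefly types I and III in the dermis, build the rope-like fibres that carry load, and type V sits inside those fibres and helps to start them. Fibril-associated collagens coat the fibres, type IV forms the sheet of basement membranes under epithelia and around vessels and muscle fibres, and type VI forms beaded filaments close to cells. In skin, fibroblasts make most of the fibrillar and type VI collagen.

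Levels are given as deposited, in log2 units, so that a difference of 1 means 2-fold. Array medians lay between 6.27 and 6.45, and 23 background probe sets had a median of 5.46. Of the 41 collagen genes, 37 passed the filter on mean level (4.864, the 30th percentile) and were tested among 13653 genes. The 4 that did not pass were Col24a1, Col4a5, Col10a1 and Col26a1. Mean levels lay below the background median for 9 of the 41, among them 5 that were tested (Col27a1, Col9a1, Col19a1, Col6a4 and Col6a5), so differences of these genes rest on weak signal. Col1a1, Col1a2 and Col3a1 read above 16 on all 10 arrays, which is more than a 16-bit scan can hold on a log2 scale, and the deposited scale may be stretched there. Signals of different genes come from different probes and are not compared with each other. The tissue label fits its markers: the 7 basal epidermis markers had mean levels from 13.08 to 14.53 and the 9 fibroblast markers from 10.86 to 13.73. Some arrays stood apart. Hair shaft and inner root sheath markers had a mean of 15.47 in anagen and 11.23 on the expanded array of day 7, against 4.54 to 7.65 on the other 8 arrays. The non-expanded array of day 7 read the highest of all 10 for 12 of 37 collagen genes tested (against 10.3% of all genes tested), and the anagen array read the lowest for 16 of 37 (against 25.3%).

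Promoters are shown for a choice of genes that read higher in expanded skin than without surgery, to let the chains of a molecule be set beside each other. Col4a4 and Col6a6, lower in expanded than in non-expanded skin, had smaller unadjusted p in that comparison than Col8a1 and are not shown. RefSeq promoter windows (GRCm38.p6, the assembly also called mm10), from 250 bases before a start site to 50 after it, were matched by gene identifier for 33 of the 41 genes, not for Col1a1, Col2a1, Col5a2, Col4a3, Col9a3, Col14a1, Col22a1 and Col26a1. The stretches below end 1 base before the outermost annotated start of each gene and are written 5′ to 3′ on the gene's own strand. Capitals mark matches on either strand to GGGCGG, the core of a GC box, or to CCAAT. Col6a1 (chr10:76726045-76726294, minus strand), Col6a2 (chr10:76623631-76623880, minus strand) and Col6a3 (chr1:90844002-90844221, minus strand) encode the 3 chains of the common type VI molecule, and Col5a1 (chr2:27886175-27886380, plus strand) a chain of type V. Col8a1 (chr16:57754738-57754987, minus strand) and Col11a1 (chr3:114030290-114030478, plus strand) read higher in expanded than in non-expanded skin before adjustment.
Col6a1: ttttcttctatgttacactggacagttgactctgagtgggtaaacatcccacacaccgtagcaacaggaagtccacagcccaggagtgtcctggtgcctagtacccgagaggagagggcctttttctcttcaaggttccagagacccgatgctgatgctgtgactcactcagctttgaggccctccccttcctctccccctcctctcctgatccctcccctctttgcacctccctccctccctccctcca
Col6a2: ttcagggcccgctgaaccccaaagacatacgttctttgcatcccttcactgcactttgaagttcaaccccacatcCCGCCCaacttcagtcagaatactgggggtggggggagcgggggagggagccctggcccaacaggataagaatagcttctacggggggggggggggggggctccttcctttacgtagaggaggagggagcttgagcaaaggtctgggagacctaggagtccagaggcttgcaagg
Col6a3: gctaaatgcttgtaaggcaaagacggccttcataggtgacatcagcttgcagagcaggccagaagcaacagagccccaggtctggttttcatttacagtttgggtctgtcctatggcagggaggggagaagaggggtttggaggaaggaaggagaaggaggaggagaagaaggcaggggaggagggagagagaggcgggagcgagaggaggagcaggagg
Col5a1: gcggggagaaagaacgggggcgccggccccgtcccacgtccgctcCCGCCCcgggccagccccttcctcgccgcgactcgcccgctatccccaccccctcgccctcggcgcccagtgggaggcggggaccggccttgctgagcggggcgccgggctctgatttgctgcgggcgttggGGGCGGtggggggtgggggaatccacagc
Col8a1: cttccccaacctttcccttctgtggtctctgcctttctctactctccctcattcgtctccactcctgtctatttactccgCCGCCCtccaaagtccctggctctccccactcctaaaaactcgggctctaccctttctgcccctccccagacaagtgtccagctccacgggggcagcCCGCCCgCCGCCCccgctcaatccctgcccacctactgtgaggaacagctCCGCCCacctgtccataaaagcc
Col11a1: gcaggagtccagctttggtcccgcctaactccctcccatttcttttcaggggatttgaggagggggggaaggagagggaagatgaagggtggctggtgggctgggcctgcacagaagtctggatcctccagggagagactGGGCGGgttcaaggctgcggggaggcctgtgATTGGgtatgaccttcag

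The stretches of the partner chains Col6a1, Col6a2 and Col6a3 held 0, 1 and 0 GC box matches, and that of Col8a1 held 4. No stretch of the 6 held TATAAA, the core of a TATA box. Over the whole windows of 300 bases, GGGCGG was found in 22 of 36 windows of collagen genes (61.1%) and in 35.7% of all 32851 windows. CCAAT was found in 11 of 36 (30.6%), against 37.4% of all windows, and TATAAA in 4 of 36 (11.1%), against 13.6%. Matches were counted on both strands, and matches of different motifs may share bases. The TATAAA matches lay in windows of Col3a1, Col10a1, Col11a2 and Col13a1. A match is a description of the letters and not a site.

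Several collagen genes are neighbours. Col6a2 and Col6a1 lie 85.2 kb apart on chromosome 10, and Col3a1 and Col5a2 lie 24.6 kb apart on chromosome 1. Col6a6, Col6a5 and Col6a4 follow each other on chromosome 9 with gaps of 27.8 and 27.9 kb. The type IV genes lie in pairs: the annotated bodies of Col4a1 and Col4a2 overlap by 85 bases on chromosome 8, those of Col4a4 and Col4a3 by 114 bases on chromosome 1, and Col4a6 and Col4a5 lie 1.27 kb apart on the X chromosome.

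**Figure D1:**
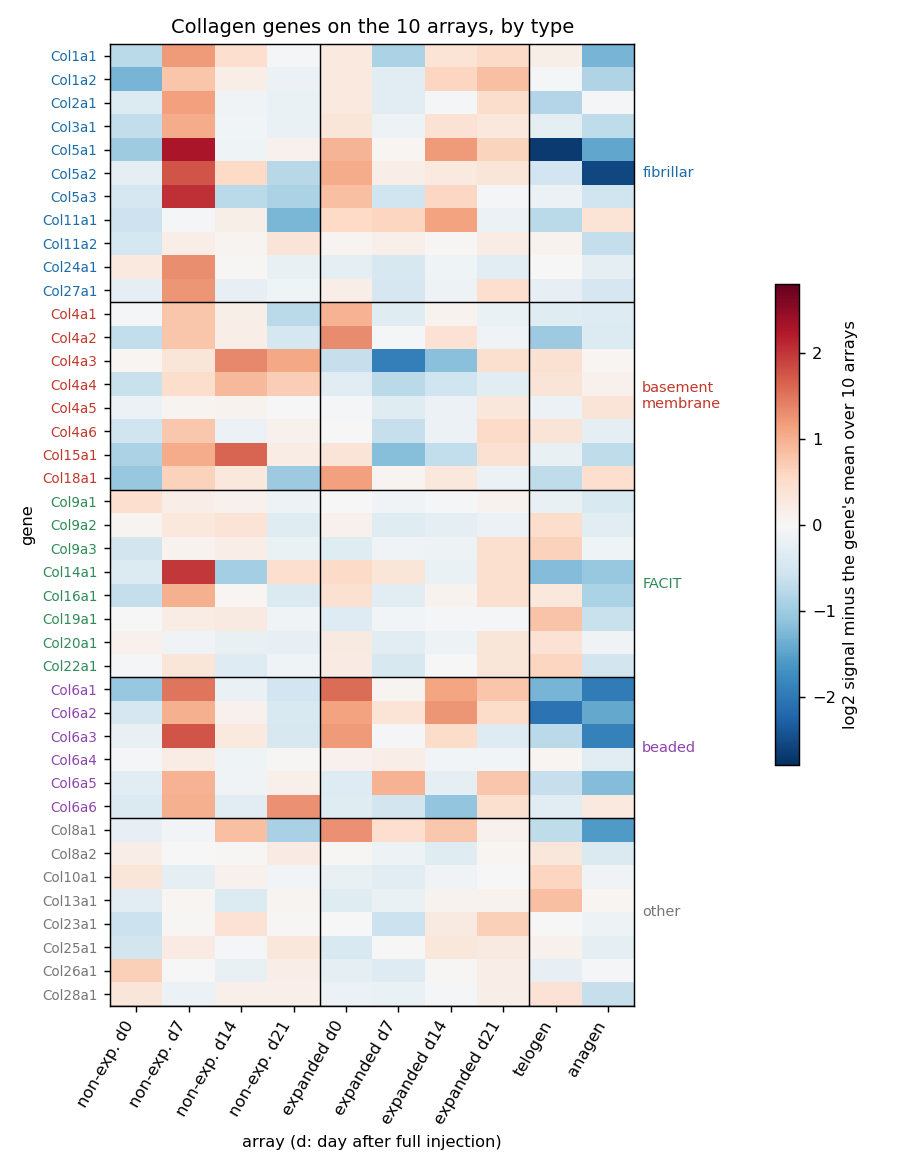
Each row is a collagen gene and each column an array; colour gives the log2 signal minus the mean of that gene over the 10 arrays, and the genes are grouped by type. The non-expanded array of day 7 is the reddest column in the fibrillar and beaded groups, and the type VI genes Col6a1, Col6a2 and Col6a3 are blue in both arrays without surgery.

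The comparison of expanded skin with skin without surgery asks which collagen genes differ in skin that was both operated on and stretched. Of the 37 collagen genes tested, 1 passed the threshold: Col6a2, which encodes the alpha 2 chain of type VI (chromosome 10, 76595756 to 76623630). In every arm below, values follow the order of days 0, 7, 14 and 21. Col6a2 read 11.24, 12.70, 11.81 and 11.27 in non-expanded skin, 12.83, 12.08, 12.94 and 12.21 in expanded skin, 9.64 in telogen and 10.26 in anagen. All 8 expander arrays lay above both arrays without surgery, with no overlap. The mean was 12.52 ± 0.43 in expanded skin (SD, n = 4) and 9.95 ± 0.44 without surgery (SD, n = 2), a difference of 2.57 ± 0.45 (SE), with a limma adjusted p of 0.0454. Over all genes tested, 0.447% were called higher at that threshold, and 4 genes were called lower. The call ended when any 1 expanded array was left out, when the anagen array was left out, and without the level filter (adjusted p from 0.0544 to 0.143). In bulk skin, more cells of a type and more RNA per cell cannot be told apart.

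Col6a1, the alpha 1 chain (chromosome 10, 76708792 to 76726044), read 10.93, 13.47, 11.81 and 11.44 in non-expanded skin, 13.55, 12.06, 13.09 and 12.76 in expanded skin, 10.69 in telogen and 10.03 in anagen. It too read higher on all 8 expander arrays than on both arrays without surgery. The difference between expanded skin and skin without surgery was 2.50 ± 0.65 (limma adjusted p = 0.0957). Col6a3, the alpha 3 chain (chromosome 1, 90766860 to 90844001), read 13.37, 15.34, 13.85 and 13.14 in non-expanded skin, 14.78, 13.52, 14.09 and 13.22 in expanded skin, 12.83 in telogen and 11.70 in anagen. The difference was 1.64 ± 0.64 (limma adjusted p = 0.241), again with no overlap between the 8 expander arrays and the 2 others. Neither chain passed the threshold with all 10 arrays. Without the non-expanded array of day 7, which enters this contrast only through the pooled spread and was left out after seeing the data, Col6a1 (adjusted p = 0.0464), Col5a1 (adjusted p = 0.0423) and Col6a2 were called.

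The chains of type V collagen help to start and regulate type I fibrils, and none of the 3 passed the test. Col5a1, its alpha 1 chain (chromosome 2, 27886381 to 28039510), read 8.05, 11.31, 8.92 and 9.16 in non-expanded skin, 10.00, 9.09, 10.23 and 9.66 in expanded skin, 6.36 in telogen and 7.58 in anagen. Every expander array lay above both arrays without surgery, and the non-expanded array of day 7 was the highest of all. The mean was 9.75 ± 0.50 in expanded skin (n = 4) against 6.97 ± 0.86 (n = 2), a difference of 2.78 ± 0.76 (limma adjusted p = 0.114). Col5a2, the alpha 2 chain (chromosome 1, 45374331 to 45503282), read 10.15, 12.19, 10.98 and 9.64 in non-expanded skin, 11.46, 10.61, 10.70 and 10.76 in expanded skin, 9.89 in telogen and 7.87 in anagen. The 4 expanded arrays lay above both arrays without surgery, but the non-expanded array of day 21 lay below telogen. The difference between expanded skin and skin without surgery was 2.00 ± 0.71 (limma adjusted p = 0.198). It was 3.01 without the telogen array (limma adjusted p = 0.0361) and 0.99 without the anagen array (adjusted p = 0.481), and in each case 1 array stands for skin without surgery. Col5a3, the third chain of the type, read 5.64, 8.17, 5.36 and 5.23 in non-expanded skin, 6.95, 5.55, 6.69 and 6.05 in expanded skin, 5.96 in telogen and 5.55 in anagen, and its groups overlapped (difference 0.56 ± 0.75).

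Type VIII is a short-chain collagen of vessel walls and other sheet-like networks. Col8a1, its alpha 1 chain (chromosome 16, 57624256 to 57754737), read 7.54, 7.69, 8.61 and 6.87 in non-expanded skin, 9.05, 8.24, 8.52 and 7.89 in expanded skin, 7.06 in telogen and 6.19 in anagen. The 4 expanded arrays lay above both arrays without surgery, while the non-expanded array of day 21 lay below telogen. The difference was 1.80 ± 0.49 (limma adjusted p = 0.113), and it was 2.24 without the telogen array (adjusted p = 0.0403) and 1.36 without the anagen array (adjusted p = 0.22). Its partner Col8a2 read 7.92, 7.74, 7.77 and 7.97 in non-expanded skin, 7.77, 7.60, 7.39 and 7.79 in expanded skin, 8.05 in telogen and 7.34 in anagen, with a difference of -0.06 ± 0.28. Col14a1, a fibril-associated collagen that binds the surface of fibrils, read 8.29, 10.64, 7.71 and 9.13 in non-expanded skin, 9.21, 9.00, 8.47 and 9.12 in expanded skin, 7.44 in telogen and 7.60 in anagen. All 8 expander arrays lay above both others, and the difference was 1.42 ± 0.66 (limma adjusted p = 0.315). Col6a5, a chain that can replace alpha 3 of type VI, read 5.12, 6.41, 5.35 and 5.58 in non-expanded skin, 5.08, 6.42, 5.18 and 6.22 in expanded skin, 4.78 in telogen and 4.22 in anagen, close to background, with no overlap between the 8 expander arrays and the 2 others. The difference was 1.22 ± 0.49 (limma adjusted p = 0.246).

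**Figure D2:**
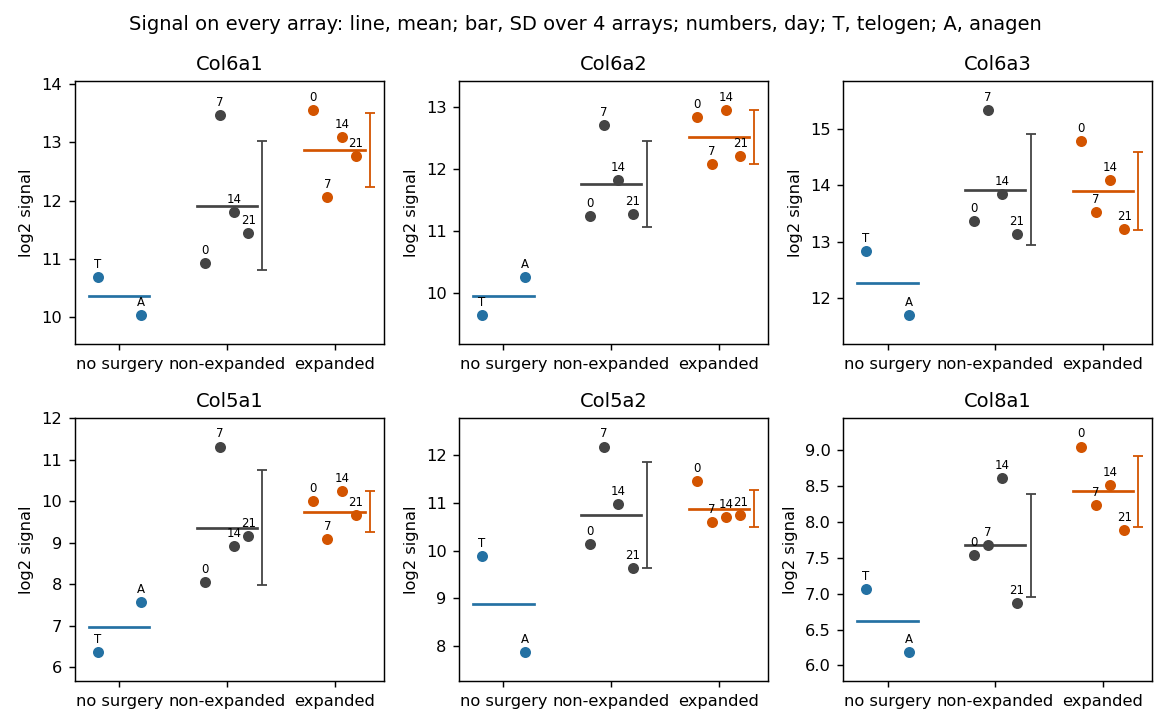
Log2 signal of 6 collagen genes on every array, by group; points are arrays marked with the day or hair stage, lines are group means and bars the SD over the 4 arrays of an arm. For Col6a1, Col6a2, Col6a3 and Col5a1 the 8 expander arrays all lie above telogen and anagen, while for Col5a2 and Col8a1 the non-expanded array of day 21 lies below telogen.

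Counted over the 37 genes tested, 7 had an unadjusted p under 0.05 and a higher level in expanded skin than without surgery (Col5a1, Col5a2, Col6a1, Col6a2, Col6a3, Col6a5 and Col8a1), which is 18.9% against 10.7% of all genes tested. On the lower side there were 0, against 5.69%. The median difference over all 41 genes was 0.31, against -0.04 over all genes with a symbol. By type, 4 of 6 beaded genes, 2 of 10 fibrillar genes and 1 of 6 others were among the 7, with 0 of 7 basement membrane and 0 of 8 fibril-associated genes. Col4a2, of the common type IV molecule, read 8.76, 10.23, 9.64 and 8.97 in non-expanded skin, 10.78, 9.43, 9.87 and 9.35 in expanded skin, 8.43 in telogen and 9.08 in anagen, and differed by 1.10 ± 0.51 (limma adjusted p = 0.316), with the 4 expanded arrays above both arrays without surgery. The main dermal collagens did not pass the test: the difference was 0.65 ± 0.61 for Col1a1, 0.80 ± 0.54 for Col1a2 and 0.70 ± 0.44 for Col3a1 (limma adjusted p from 0.471 to 0.656). For Col3a1 the 4 expanded arrays lay above both arrays without surgery, and for the other 2 genes the groups overlapped. Col4a4 went the other way, with the 4 expanded arrays below both arrays without surgery (-0.71 ± 0.41, limma adjusted p = 0.428). How often all genes tested separate in this way, 4 arrays from 2, was not counted.

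The comparison of non-expanded skin with skin without surgery addresses the operation and the unfilled expander together, without stretch by filling. It shares its control arrays with the comparison above, so both are given side by side and not as separate evidence. No collagen gene was called by limma (0 of 37, lowest adjusted p = 0.112, for Col6a2), and over all 13653 genes there were 0 as well. With unadjusted p under 0.05, 6 collagen genes were higher (Col5a1, Col5a2, Col6a1, Col6a2, Col6a3 and Col6a5; 16.2%, against 9.42% of all genes tested) and 0 were lower, against 6.28%. Differences were 1.81 ± 0.45 for Col6a2, 1.55 ± 0.65 for Col6a1, 1.66 ± 0.64 for Col6a3, 2.39 ± 0.76 for Col5a1, 1.86 ± 0.71 for Col5a2 and 1.11 ± 0.49 for Col6a5. The expanded differences of the same genes, in the same order, were 2.57, 2.50, 1.64, 2.78, 2.00 and 1.22. The Col5a2 difference was 2.87 without the telogen array (limma adjusted p = 0.0326, in a fit in which 2645 genes were called) and 0.85 without the anagen array (adjusted p = 0.66).

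Read without a test, 7 collagen genes lay higher on all 8 expander arrays than on both arrays without surgery (Col5a1, Col9a1, Col14a1, Col6a1, Col6a2, Col6a3 and Col6a5; 18.9%, against 8.1% of all genes tested), and 0 lay lower, against 4.15%. Col9a1, a chain of the cartilage-associated type IX, was among them at background level. It read 5.85, 5.57, 5.49 and 5.24 in non-expanded skin, 5.39, 5.28, 5.35 and 5.47 in expanded skin, 5.17 in telogen and 4.96 in anagen.

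Markers of other cell types also differed between these groups, in both directions. Of the fibroblast markers, 9 were on the array, all with mean levels above background, and their mean level lay between 12.71 and 13.73 in non-expanded skin and between 12.86 and 13.46 in expanded skin, against 12.17 in telogen and 10.86 in anagen. In expanded skin against no surgery, 8 of the 9 read higher, 5 of them at unadjusted p under 0.05. The 1 that read lower, by -1.19, also had an unadjusted p under 0.05. Of the 9, 1 was called higher (Mfap5, a microfibril protein, 4.31 ± 0.69, limma adjusted p = 0.0359). The 5 macrophage markers had mean levels from 11.51 to 13.90 in non-expanded skin and from 11.42 to 13.23 in expanded skin, against 10.99 in telogen and 9.32 in anagen. The 7 endothelial markers lay between 8.78 and 10.05 and between 8.64 and 9.87, against 8.82 and 7.68. The 7 adipocyte markers read lower in expanded skin than without surgery in 7 of 7 cases (4 at unadjusted p under 0.05, 0 called, median -1.30), with mean levels from 8.99 to 11.27 in non-expanded and from 9.43 to 9.99 in expanded skin, against 11.16 in telogen and 11.43 in anagen. Of 6 dermal papilla markers, 3 of them below background, the 4 tested were lower at unadjusted p under 0.05 and 0 were called, and the list mean lay between 4.92 and 5.63 on the expander arrays, against 6.12 and 7.38. The shares of all genes tested were 10.7% higher and 5.69% lower. No fibroblast, macrophage, endothelial or adipocyte marker had a mean below background. Their part in the collagen differences was not tested.

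The comparison of expanded with non-expanded skin, paired by day, addresses the filling of the expander, with its injections and stretch together. No collagen gene was called by limma (0 of 37, lowest adjusted p = 0.331; over all genes tested 0 were called, lowest adjusted p = 0.221). The smallest unadjusted p belonged to Col11a1, which read higher in expanded skin, and to Col4a3, which read lower and encodes a chain of a basement membrane network best known from the kidney. With unadjusted p under 0.05, 2 were higher (Col11a1 and Col8a1; 5.41%, against 4.83% of all genes tested) and 3 were lower (Col4a3, Col4a4 and Col6a6; 8.11%, against 3.98%). Col11a1 and Col4a3 stayed under an unadjusted p of 0.05 whichever day was left out, while Col8a1, Col4a4 and Col6a6 each rose above it without some of the days. The median over the 41 genes was 0.04, against -0.02 over all genes with a symbol.

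Col11a1, a chain of type XI, a minor fibrillar collagen best known in cartilage (chromosome 3, 114030479 to 114220756), read 6.51, 7.01, 7.25 and 5.80 in non-expanded skin, 7.64, 7.69, 8.20 and 6.90 in expanded skin, 6.33 in telogen and 7.46 in anagen. Expanded skin read higher on each of the 4 days, by 1.14, 0.67, 0.95 and 1.11, though the arms overlapped. The difference was 0.97 ± 0.21 (SE; means 7.61 ± 0.53 and 6.64 ± 0.64, SD, n = 4 each; unadjusted p = 0.00326, limma adjusted p = 0.331). The small SE rests on the pairing by day: without the day as a block it was 0.37 (limma unadjusted p = 0.0275). It was the 1 collagen gene that was higher on all 4 days, a pattern found in 9.18% of all genes tested. Col8a1, given above, differed by 0.75 ± 0.31 (limma adjusted p = 0.558) and was higher on 3 of 4 days. Of 8 cartilage markers, 6 had mean levels below background, the list mean lay between 4.80 and 5.22 on all 10 arrays, and the aggrecan gene Acan differed by 0.19 ± 0.23 in the paired comparison. Of 7 tendon and muscle junction markers, 5 read higher in expanded than in non-expanded skin and 2 lower. An unadjusted p under 0.05 on the higher side was found for 4 of 7 (against 4.83% of all genes tested). They were Comp (1.11 ± 0.22), Thbs4 (2.51 ± 0.57), Ankrd1 (5.66 ± 1.33) and Fmod (2.17 ± 0.56), none called. Of the 7, 2 had mean levels below background. Their mean level read 8.91, 7.88, 7.53 and 6.87 in non-expanded skin and 9.58, 9.21, 9.14 and 9.28 in expanded skin. It was 7.27 in telogen and 6.38 in anagen, and its part in the Col11a1 difference was not tested.

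Col4a3 (chromosome 1, 82586921 to 82722059) read 6.44, 6.71, 7.73 and 7.47 in non-expanded skin, 5.73, 4.46, 5.20 and 6.82 in expanded skin, 6.79 in telogen and 6.42 in anagen. Expanded skin read lower on each day, by -0.71, -2.25, -2.53 and -0.65, and the expanded array of day 21 lay within the range of the other arm. The difference was -1.53 ± 0.39 (unadjusted p = 0.00669, limma adjusted p = 0.37). Its neighbour and partner chain Col4a4 (chromosome 1, 82448419 to 82587034) read 5.70, 6.82, 7.23 and 7.01 in non-expanded skin, 6.03, 5.57, 5.77 and 6.03 in expanded skin, 6.68 in telogen and 6.44 in anagen. It was lower on 3 of 4 days, with a difference of -0.84 ± 0.34 (limma adjusted p = 0.554). Col4a5, the third chain of that molecule, read 4.10, 4.35, 4.37 and 4.28 in non-expanded skin, 4.25, 3.94, 4.12 and 4.59 in expanded skin, 4.12 in telogen and 4.64 in anagen, under the background median throughout, and was not tested. Col6a6, an alternative to alpha 3 of type VI (chromosome 9, 105689417 to 105828246), read 5.30, 6.70, 5.43 and 6.98 in non-expanded skin, 5.36, 5.19, 4.60 and 6.15 in expanded skin, 5.42 in telogen and 6.00 in anagen, and was lower on days 7, 14 and 21 (-0.78 ± 0.30, limma adjusted p = 0.532). Col8a2 and Col4a3 were the 2 genes that were lower on all 4 days (8.1% of all genes tested were), Col8a2 by only -0.15, -0.14, -0.38 and -0.18.

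Skeletal muscle markers too were mostly lower in expanded than in non-expanded skin, 10 lower and 1 higher. All 11 were on the array and tested, with levels above background. Their mean level was between 15.64 and 16.39 in non-expanded skin and between 13.03 and 15.55 in expanded skin, and it was 16.70 in telogen and 12.99 in anagen. In the paired comparison 7 of 11 had an unadjusted p under 0.05 on the lower side (against 3.98% of all genes tested) and 0 were called. Among the 8 expander arrays the mean was lowest on the expanded arrays of days 7 and 14 (13.03 and 13.37). On these days Col4a3, Col4a4 and Col15a1 differed most between the arms. Col6a6 differed by -1.51, -0.82 and -0.83 at days 7, 14 and 21, and Col4a4 by -0.98 at day 21, when the muscle mean was 15.54 in expanded skin. On the anagen array, with a muscle mean of 12.99, close to that of the expanded array of day 7, Col4a3 read 6.42, Col4a4 6.44, Col6a6 6.00 and Col15a1 7.49. The part of muscle in these differences was not tested.

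**Figure D3:**
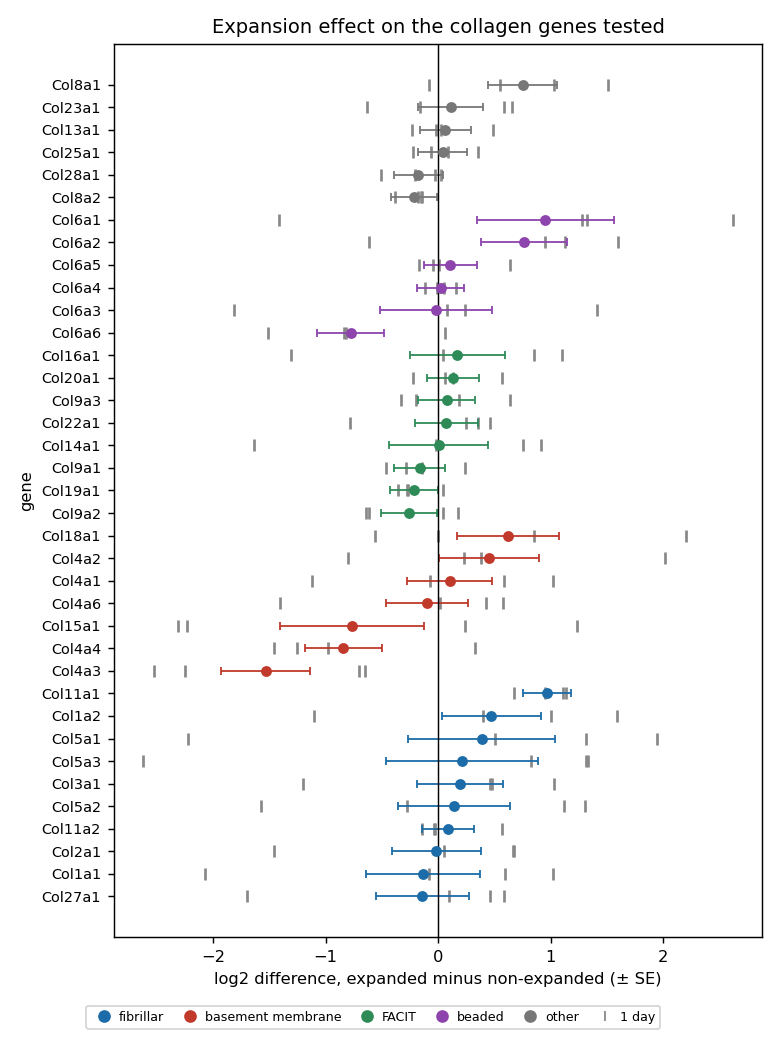
Expansion effect on the 37 collagen genes tested: coloured points are log2 differences, expanded minus non-expanded, with the SE, and grey ticks are the differences on each of the 4 days. The 4 ticks of Col11a1 all lie above 0 and the 4 ticks of Col4a3 all lie below, while for Col1a1, Col5a1, Col5a3, Col6a1 and Col6a3 the tick of day 7 lies far to the left of the other 3.

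The main collagens of the dermis did not differ beyond their spread between the arms. Col1a1, the alpha 1 chain of type I (chromosome 11, 94936224 to 94953042), read 17.12, 19.06, 18.34 and 17.81 in non-expanded skin, 18.14, 16.98, 18.26 and 18.40 in expanded skin, 18.02 in telogen and 16.57 in anagen. Its difference was -0.14 ± 0.51 (limma adjusted p = 0.953), and without day 7 it was 0.51. Col1a2, the alpha 2 chain (chromosome 6, 4505618 to 4541543), read 16.04, 18.12, 17.54 and 17.20 in non-expanded skin, 17.63, 17.02, 17.94 and 18.19 in expanded skin, 17.29 in telogen and 16.51 in anagen, with a difference of 0.47 ± 0.44. Col3a1, the type III chain (chromosome 1, 45311538 to 45349706), read 17.38, 19.12, 18.01 and 17.88 in non-expanded skin, 18.41, 17.92, 18.47 and 18.36 in expanded skin, 17.83 in telogen and 17.36 in anagen, with a difference of 0.19 ± 0.38. For all 3 the arms overlapped. The single chains of type VI differed by 0.95 ± 0.61 for Col6a1, 0.76 ± 0.38 for Col6a2 and -0.02 ± 0.50 for Col6a3. With 1 day left out, the differences ran from 0.40 (without day 0) to 1.74 (without day 7) for Col6a1 and from 0.48 to 1.22 for Col6a2, and for Col1a2 from 0.099 to 0.996, again without day 0 and without day 7. Without day 7 none of these 3 genes was called (limma adjusted p from 0.244 to 0.325). The chains of type V differed by 0.39 ± 0.65 for Col5a1, 0.14 ± 0.50 for Col5a2 and 0.21 ± 0.68 for Col5a3. In no collagen gene did all 4 expanded arrays lie above all 4 non-expanded arrays (2.97% of all genes tested did) or below them (1.87%).

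Single days were compared with 1 array a side and no test. At day 0, 16 of 37 collagen genes were at least 2-fold higher in expanded skin (43.2%, against 9.49% of all genes tested) and 0 were 2-fold lower (6.18%). At day 7 the picture was turned: 0 were 2-fold higher (8.45%) and 18 were at least 2-fold lower (48.6%, against 9.43%). Day 14 had 4 higher (10.8%, against 11.4%) and 3 lower (8.11%, against 8.85%), and day 21 had 4 higher (10.8%, against 6.69%) and 0 lower (6.13%). Over all 41 genes, 31 read higher at day 0 with a median of 0.57, and 38 read lower at day 7 with a median of -0.78. Of the 19505 genes with a symbol, 9465 read higher at day 0 (median -0.02) and 10352 lower at day 7 (median -0.04). The collagen medians at days 14 and 21 were -0.01 and 0.43, against -0.01 and 1.7e-05 over all genes with a symbol. These differences have no replicate check.

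The 16 genes of day 0 were Col1a1, Col1a2, Col3a1, Col5a1, Col5a2, Col5a3, Col11a1, Col4a1, Col4a2, Col15a1, Col18a1, Col16a1, Col6a1, Col6a2, Col6a3 and Col8a1. The difference was 2.62, -1.42, 1.28 and 1.33 for Col6a1, in the order of days, 2.20, -0.56, -0.01 and 0.85 for Col18a1 and 2.01, -0.81, 0.23 and 0.38 for Col4a2. In these 3 genes, those with the largest differences at day 0, the non-expanded array of day 0 was the lowest of its arm. At day 7 the lowest differences were those of Col5a3, Col4a3, Col15a1 and Col5a1. Over the days the differences were 1.31, -2.62, 1.33 and 0.83 for Col5a3, 1.23, -2.23, -2.31 and 0.24 for Col15a1 and 1.95, -2.22, 1.31 and 0.50 for Col5a1, while Col4a3 is given above. The 18 lower genes of day 7 were Col1a1, Col1a2, Col2a1, Col3a1, Col5a1, Col5a2, Col5a3, Col27a1, Col4a1, Col4a3, Col4a4, Col4a6, Col15a1, Col14a1, Col16a1, Col6a1, Col6a3 and Col6a6. The non-expanded array of day 7 was the highest of all 10 for 12 of the 37 genes tested, as given above, and the expanded array of day 7 was the lowest for 6 of 37 (16.2%, against 7.7% of all genes tested). The expanded array of day 7 was also the one with hair markers at 11.23 and muscle markers at 13.03, whose part in these differences was not tested.

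**Figure D4:**
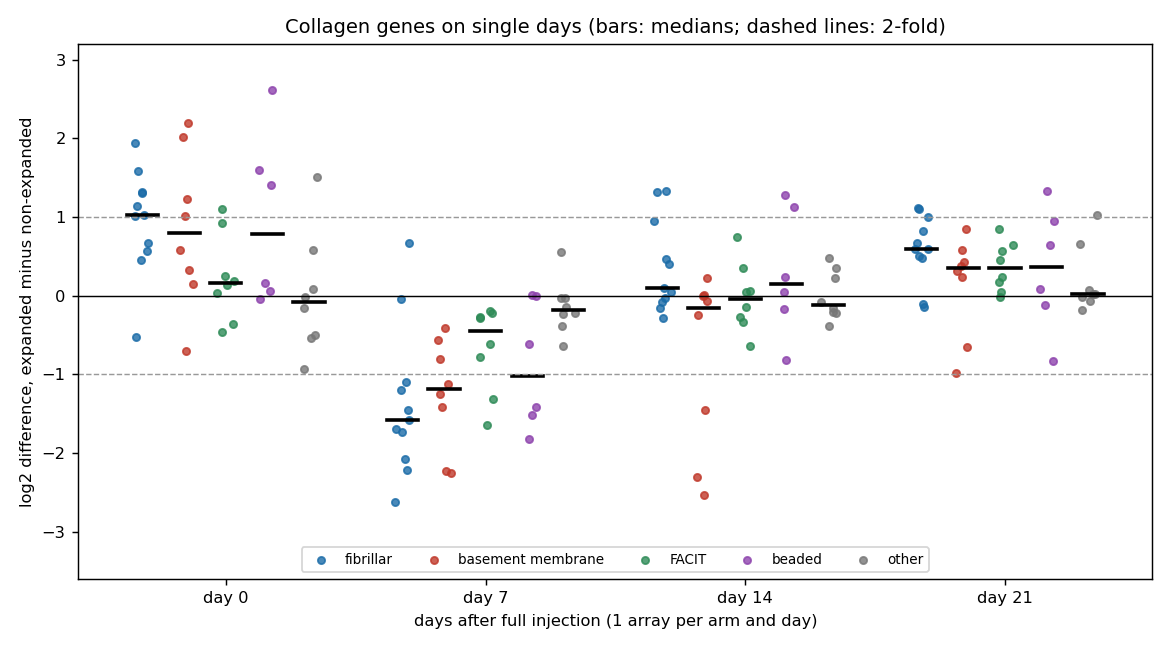
Differences of the 41 collagen genes on single days, expanded minus non-expanded, 1 array per arm and day; points are genes coloured by type, bars are the medians of the type and dashed lines mark 2-fold. The medians of the fibrillar genes are 1.03 at day 0, -1.57 at day 7, 0.09 at day 14 and 0.59 at day 21.

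Grouped by type, the swing between days 0 and 7 was large in the fibrillar, basement membrane and beaded groups and small in the others. Mean levels were taken over the genes of a type after centring each gene on its own 10-array mean. In non-expanded skin the fibrillar mean was -0.54, 1.17, 0.02 and -0.31 at days 0, 7, 14 and 21, and in expanded skin it was 0.42, -0.20, 0.39 and 0.29. The beaded mean was -0.41, 1.07, -0.05 and 0.005 in non-expanded and 0.55, 0.17, 0.23 and 0.34 in expanded skin, and -0.83 and -1.08 in telogen and anagen. The basement membrane mean was -0.50, 0.61, 0.56 and -0.02 in non-expanded and 0.35, -0.64, -0.24 and 0.12 in expanded skin. The fibril-associated and other means stayed between -0.17 and 0.50 on all 8 expander arrays. Col14a1 and Col16a1 had the highest mean levels of the fibril-associated group (8.66 and 9.42). Expanded minus non-expanded, they differed by 0.92 and 1.10 at day 0 and by -1.64 and -1.31 at day 7. The rest of that group had mean levels from 5.05 to 6.73, closer to the background median of 5.46.

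**Figure D5:**
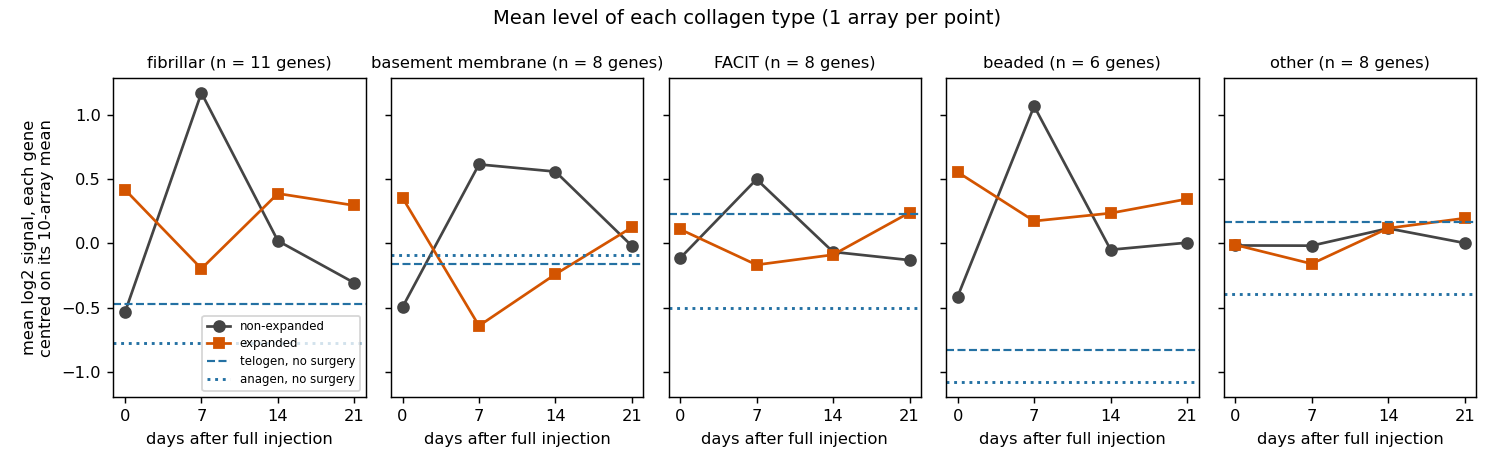
Mean log2 level of each collagen type on each array, after centring each gene on its 10-array mean, against the day; lines join the arrays of an arm and horizontal lines show telogen and anagen. The non-expanded line peaks at day 7 in the fibrillar, basement membrane and beaded panels, and in the beaded panel all 8 expander arrays lie above both horizontal lines.

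The straight-line change over the days did not differ between the arms beyond its error. A straight line cannot show a turn on a single day, such as that of day 7, so other differences in the course were not tested. Straight lines over 21 days gave slope differences with unadjusted p under 0.05 for 0 of 37 collagen genes by limma, against 1.22% of all genes tested (lowest adjusted p = 0.999). Col4a4 had the smallest unadjusted p of the 37 (limma change over 21 days, expanded minus non-expanded, -1.24 ± 0.75, unadjusted p = 0.138). Its fitted change was 1.31 ± 0.53 in non-expanded and 0.06 ± 0.53 in expanded skin. Without day 0 the slope difference was 0.41. The next were Col9a1 (0.67 ± 0.53), Col11a2 (-0.64 ± 0.57) and Col4a2 (-1.16 ± 1.08).

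Anagen and telogen skin were compared with 1 array a side and no test. Of the 37 genes, 7 were at least 2-fold lower in anagen (Col1a1, Col5a2, Col16a1, Col19a1, Col22a1, Col6a3 and Col28a1; 18.9%, against 20.4% of all genes tested) and 3 at least 2-fold higher (Col5a1, Col11a1 and Col18a1; 8.11%, against 23.5%). The median over the 41 genes was -0.47, against -0.16 over all genes with a symbol. The largest differences were -2.01 for Col5a2, -1.46 for Col1a1, -1.43 for Col19a1 and -1.17 for Col16a1 on the lower side, and 1.21 for Col5a1 and 1.19 for Col18a1 on the higher side. Col1a1 read 18.02 in telogen and 16.57 in anagen, and Col18a1, a basement membrane collagen from which endostatin is cut, read 9.32 and 10.51. The fibroblast markers were lower in anagen in 7 of 9 cases (median -1.22), the skeletal muscle markers in 11 of 11 (median -3.39), and the hair shaft and inner root sheath markers higher in 11 of 11 (median 10.14). The part of these cells in the collagen differences was not tested.

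Chains that share a molecule did not always keep step. In the anagen and telogen pair, Col5a1 was higher in anagen and Col5a2 lower (1.21 and -2.01), while Col6a2 was higher (0.62) and Col6a1 and Col6a3 lower (-0.65 and -1.13). Col1a1 and Col1a2 both were lower (-1.46 and -0.78). Between the arms, Col6a1 and Col6a2 differed by 0.95 and 0.76 and Col6a3 by -0.02, Col8a1 by 0.75 and Col8a2 by -0.21, and Col11a1 by 0.97 and Col11a2 by 0.09. Col4a1 and Col4a2 differed by 0.10 and 0.45, and Col9a1, Col9a2 and Col9a3 by -0.16, -0.26 and 0.07. None of the differences between chains was tested.

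The remaining genes are given by type. In the fibrillar group, Col2a1, the main collagen of cartilage, read 5.78, 7.31, 6.07 and 6.00 in non-expanded skin, 6.45, 5.86, 6.12 and 6.67 in expanded skin, 5.36 in telogen and 6.13 in anagen, with the non-expanded array of day 7 the highest. Col11a2 read 7.09, 7.76, 7.65 and 7.94 in non-expanded skin, 7.66, 7.72, 7.62 and 7.79 in expanded skin, 7.69 in telogen and 6.92 in anagen, lowest in anagen. Col27a1 read 4.77, 6.27, 4.80 and 4.91 in non-expanded skin, 5.22, 4.57, 4.89 and 5.50 in expanded skin, 4.81 in telogen and 4.56 in anagen, above background on 2 of 10 arrays, and Col24a1 read 5.09, 6.10, 4.84 and 4.60 in non-expanded skin, 4.57, 4.37, 4.69 and 4.50 in expanded skin, 4.79 in telogen and 4.56 in anagen. Both were highest on the non-expanded array of day 7.

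In the basement membrane group, Col4a1 read 7.70, 8.53, 7.92 and 6.98 in non-expanded skin, 8.72, 7.40, 7.85 and 7.57 in expanded skin, 7.40 in telogen and 7.39 in anagen, highest on the expanded array of day 0. Col4a6 read 5.27, 6.59, 5.67 and 5.95 in non-expanded skin, 5.85, 5.18, 5.68 and 6.38 in expanded skin, 6.20 in telogen and 5.57 in anagen. Col15a1, a collagen of the zone around vessels and muscle fibres, read 7.34, 9.26, 9.84 and 8.41 in non-expanded skin, 8.57, 7.03, 7.53 and 8.65 in expanded skin, 8.01 in telogen and 7.49 in anagen, and was lower in expanded skin at days 7 and 14 only (-0.77 ± 0.64, limma adjusted p = 0.75). Col18a1 read 8.97, 10.67, 10.32 and 9.02 in non-expanded skin, 11.17, 10.11, 10.31 and 9.87 in expanded skin, 9.32 in telogen and 10.51 in anagen, with its highest value on the expanded array of day 0.

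In the fibril-associated group, Col16a1 read 8.75, 10.40, 9.47 and 9.02 in non-expanded skin, 9.84, 9.10, 9.52 and 9.87 in expanded skin, 9.71 in telogen and 8.53 in anagen. Col22a1, a collagen of the junction between muscle and tendon, read 6.10, 6.46, 5.76 and 6.01 in non-expanded skin, 6.35, 5.68, 6.11 and 6.47 in expanded skin, 6.73 in telogen and 5.61 in anagen, with telogen the highest. Col9a2 read 5.99, 6.20, 6.30 and 5.57 in non-expanded skin, 6.03, 5.58, 5.66 and 5.74 in expanded skin, 6.40 in telogen and 5.62 in anagen, and Col9a3 read 6.21, 6.84, 6.93 and 6.54 in non-expanded skin, 6.40, 6.64, 6.60 and 7.18 in expanded skin, 7.38 in telogen and 6.61 in anagen, both highest in telogen. Col19a1 read 5.05, 5.25, 5.30 and 4.96 in non-expanded skin, from 4.69 (day 0) to 5.02 (day 14) in expanded skin, 5.86 in telogen and 4.43 in anagen, and Col20a1 read 6.63, 6.43, 6.31 and 6.30 in non-expanded skin, 6.76, 6.20, 6.37 and 6.87 in expanded skin, 6.93 in telogen and 6.41 in anagen. The expansion effects of these 6 genes lay between -0.26 and 0.17, and none passed the test (limma unadjusted p from 0.33 to 0.811).

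Among the others, Col13a1, Col23a1 and Col25a1 span the cell membrane. Col13a1, known at the neuromuscular junction, read 6.75, 7.13, 6.68 and 7.15 in non-expanded skin, 6.73, 6.89, 7.17 and 7.18 in expanded skin, 7.91 in telogen and 7.12 in anagen, and Col23a1 read 6.52, 7.15, 7.52 and 7.14 in non-expanded skin, 7.10, 6.51, 7.36 and 7.79 in expanded skin, 7.11 in telogen and 6.97 in anagen. Col25a1 read 4.97, 5.74, 5.47 and 5.81 in non-expanded skin, 5.06, 5.51, 5.82 and 5.75 in expanded skin, 5.62 in telogen and 5.22 in anagen. Col28a1 read 7.20, 6.71, 7.02 and 7.02 in non-expanded skin, 6.70, 6.69, 6.82 and 7.04 in expanded skin, 7.28 in telogen and 6.22 in anagen, lowest in anagen. Col6a4, of the beaded group, read between 4.83 and 5.32 on all 10 arrays, below background throughout. Col10a1, of hypertrophic cartilage, read 3.97, 3.37, 3.74 and 3.55 in non-expanded skin, 3.43, 3.34, 3.52 and 3.62 in expanded skin, 4.23 in telogen and 3.54 in anagen, and Col26a1 read 4.46, 3.80, 3.58 and 3.97 in non-expanded skin, 3.53, 3.41, 3.81 and 3.96 in expanded skin, 3.54 in telogen and 3.74 in anagen. Both stayed below the background median on all 10 arrays. They did not pass the filter on mean level, so their differences were not tested.

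Enzymes that fold, trim and cross-link collagen were read beside the collagens. Of 28 such genes on the array, 26 were tested. In expanded skin against skin without surgery 3 were called higher (against 0.447% of all genes tested) and 0 lower, and 16 of 26 had an unadjusted p under 0.05 on the higher side (against 10.7%). The 3 called were Lox (4.51 ± 0.43, limma adjusted p = 0.00635), Loxl1 (3.91 ± 0.68, limma adjusted p = 0.0432) and Loxl3 (3.52 ± 0.59, limma adjusted p = 0.0406). They are lysyl oxidases, enzymes that start the cross-links between collagen chains. Their calls were not recomputed with arrays left out, and those of Loxl1 and Loxl3 lie near the threshold. Fkbp14, a folding enzyme of the endoplasmic reticulum, differed by 1.54 ± 0.34 and did not pass (limma adjusted p = 0.0704). Between the arms, 0 were called and Lox had the smallest p (1.65 ± 0.30, limma adjusted p = 0.303).

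Of the collagen receptors, 8 were on the array and 7 were tested, with 0 called in expanded skin against no surgery and 5 higher at unadjusted p under 0.05 (against 10.7% of all genes tested), among them Itgb1 (1.89 ± 0.38), Lair1 (2.22 ± 0.54) and Mrc2 (2.30 ± 0.58). Of the 12 genes of collagen breakdown, all tested, 0 were called and 7 were higher at unadjusted p under 0.05, beside the same 10.7%. Timp1, an inhibitor of matrix metalloproteinases, differed by 7.03 ± 1.54, Mmp14, a membrane-bound collagenase, by 1.98 ± 0.49, Mmp3 by 3.87 ± 1.00 and Mmp2 by 2.94 ± 0.83. The median differences were 1.14 for the folding and cross-linking list, 1.62 for the receptors and 2.30 for breakdown, against 0.31 for the collagens and -0.04 for all genes with a symbol. Between the arms these medians were -0.08, 0.39, 0.19, 0.04 and -0.02. These lists stand beside the collagens as a description and were not tested against them.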

How the data were processed

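Total RNA of whole skin was biotin-labelled for Affymetrix arrays, per the labels' protocols, and the submitters' processing notes name mm10. The authors deposited 1 value for each of 28846 probe sets per array, read here as log2 signals. The log base, background correction and normalization are not given in the sources used here. Base 2 was inferred here, because the values run from 1.88 to 19.88.

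Genes were named from the platform annotation, with the highest probe set kept for the 55 genes with several. Differences were fitted with limma 3.58.1 in R 4.3.3 (lmFit and eBayes, two-sided) on all genes past the level filter, with Benjamini-Hochberg adjustment over the 13653 and a threshold of 0.05. The expansion effect had the day as a block (3 residual degrees of freedom), the slopes 4, and the comparisons with skin without surgery used all 10 arrays (7). The labels give the day of each array in both arms, so same-day arrays were paired. Deviations from the arm means correlated between same-day arrays at -0.133, -0.171, -0.104 and 0.358. The number of arrays limits the precision.

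The members and gene lists were chosen with earlier results of these data known. Values on every array are given for Col1a1, Col1a2, Col3a1, the members of each type with the smallest p, those with the largest anagen and telogen differences, and the partner chains. Code was tested on simulated data. A planned count of Gly-X-Y triplets needs protein sequences and was not run. Alternatives are described in the closing section.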

Additional observations from a re-analysis of the deposited data

Results flagged for a closer look

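In 3 cases 1 array stood far from the other 3 of its arm by Dixon's test. Col5a3 read 8.17 on the non-expanded array of day 7, against 5.23 to 5.64 on the other days, and Col27a1 read 6.27 on the same array, against 4.77 to 4.91. Col19a1 read 4.69 on the expanded array of day 0, against 4.98 to 5.02, all below the background median. Over all genes tested, such arrays were found for 4.83% in the non-expanded and 6% in the expanded arm, close to the rate of the test by chance, and among the 37 collagen genes for 2 and 1.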

How the results depend on the processing

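Of the values recomputed under the alternatives, 481 were graded as unchanged, 16 counts moved, 5 values newly passed, 6 no longer passed and 11 turned their sign. Unchanged means the same direction and side of the threshold for single genes. For counts it allows limited changes, such as from 5 to 4 genes. For means of a type it allows shifts smaller than the SD over the days. In the paired comparison the 5 genes with unadjusted p under 0.05 became 3 with no replicate block, 3 with the day as a straight line, and 2 to 8 when 1 day was left out (8 without day 7, 3 without day 14, 2 without day 21). Slopes gave 0 to 9 (9 without day 0). The implantation count of called genes was 0 to 1 with 1 array left out (1 without telogen). In expanded skin against no surgery the 1 called gene became 0 without the level filter, 0 to 3 with 1 array left out (3 without telogen, 0 without anagen or any expanded array), and 3 without the non-expanded array of day 7 (an alternative chosen after seeing the data, as was the next use of it). With a day left out, the expansion effect lay at -0.52 to 0.51 for Col1a1, -0.086 to 0.66 for Col3a1, -0.14 to 1.25 for Col5a1, -0.25 to 0.71 for Col5a2 and -0.50 to 0.58 for Col6a3; without the non-expanded array of day 7 it was 0.23 for Col1a1 and 0.41 for Col6a3. The Col4a4 slope difference lay at -2.68 to 0.41. With telogen or anagen left out, Col5a2 lay at 3.01 or 0.99 in expanded skin and at 2.87 or 0.85 in non-expanded skin against no surgery. With 1 array left out, implantation for Col1a2 lay at -0.061 to 0.72, and expanded against no surgery for Col1a1 at -0.080 to 1.38. The cause was not tested. Quantile normalization and median centring shifted the median of all genes by less than 0.1. Where 1 array stands for skin without surgery, it is assumed to vary like the other groups. Signals near background limit the size of differences.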
